A study of Mus musculus with 6 samples.

Results

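Complex II (succinate dehydrogenase) and complex V (ATP synthase) are both built in the inner mitochondrial membrane, and their genes were chosen by symbol: every row of the expression table that begins with Atp5, the assembly factor genes Atpaf1 and Atpaf2, the 4 complex II subunit genes Sdha to Sdhd and the assembly factor genes Sdhaf1 to Sdhaf4. The rule took 28 of the 41709 rows of the table, and 27 of them had a mean of at least 1 TPM over the libraries and were tested. TPM is a share of all transcripts, corrected for transcript length and scaled to a total of 1000000 per library, so levels of different genes can be compared. The gene left out, Atp5o_1, was listed at 0 to 0.508 TPM. The series held 6 RNA-seq libraries of mouse tibialis anterior muscle from male C57BL/6J mice. In 3 libraries the muscle had been electroporated with a plasmid for wild-type LRPPRC (LrpprcWT), and in 3 with a plasmid for the P27A variant (LrpprcP27A), which resists dihydroxylation. Both proteins carried a 3xFlag tag and were driven by the CMV promoter, contralateral muscles received the different plasmids, and the muscles were taken 14 days later. The mice kept their own Lrpprc gene in both groups, there was no library of muscle without plasmid, and the age of the mice behind these libraries is not given in the sources used here. The muscle is a mixture of transfected and untransfected fibres with other cells, and fewer cells of a type and less RNA per cell cannot be told apart in bulk libraries.

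Complex II oxidises succinate to fumarate in the citric acid cycle and passes the electrons to ubiquinone. All 4 of its subunits are encoded in the nucleus, which sets it apart from the other respiratory complexes. ATP synthase lets protons back into the matrix through a ring of c subunits, whose rotation drives the catalytic head of alternating alpha and beta subunits to make ATP; most of its subunits are nuclear, and subunit a and A6L come from the mitochondrial genes mt-Atp6 and mt-Atp8. LRPPRC binds the messenger RNAs of the mitochondrial genome in the matrix and protects them. ATP synthase thus has a pair of mitochondrially encoded messages and complex II has none. Skeletal muscle, and oxidative fibres most of all, is rich in both enzymes.

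Mouse has 3 genes for the same mature c subunit, here Atp5g1, Atp5g2 and Atp5g3 (now named Atp5mc1, Atp5mc2 and Atp5mc3). In the GENCODE transcripts of GRCm39, the last 78 codons before the stop encode the same amino acids in all 3 genes, while the preceding 58, 68 and 63 codons, which hold the import signal, do not match throughout. The 234 bases of that shared end follow, with capitals at bases where a gene differs from both of the others; each stretch lies in 2 exons on the minus strand, of Atp5g1 within chr11:95963933-95964470, of Atp5g2 within chr15:102571452-102573610 and of Atp5g3 within chr2:73738940-73739649.
Atp5g1: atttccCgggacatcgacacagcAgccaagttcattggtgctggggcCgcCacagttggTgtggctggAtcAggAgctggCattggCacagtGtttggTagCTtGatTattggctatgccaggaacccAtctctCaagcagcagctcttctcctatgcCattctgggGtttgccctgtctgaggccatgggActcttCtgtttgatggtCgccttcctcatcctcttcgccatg
Atp5g2: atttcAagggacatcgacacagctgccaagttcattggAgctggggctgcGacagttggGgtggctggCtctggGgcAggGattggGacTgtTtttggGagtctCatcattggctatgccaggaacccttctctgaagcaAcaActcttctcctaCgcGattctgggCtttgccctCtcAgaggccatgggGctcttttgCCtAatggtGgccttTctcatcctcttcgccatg
Atp5g3: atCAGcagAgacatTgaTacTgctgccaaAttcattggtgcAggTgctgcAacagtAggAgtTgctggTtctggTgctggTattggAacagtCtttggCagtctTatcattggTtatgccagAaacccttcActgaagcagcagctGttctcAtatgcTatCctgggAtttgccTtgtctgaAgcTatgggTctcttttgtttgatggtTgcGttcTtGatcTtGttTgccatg
Within this stretch Atp5g1 and Atp5g2 were 84.6% identical, Atp5g1 and Atp5g3 78.6%, and Atp5g2 and Atp5g3 77.4%. The longest run of bases shared by any pair of the 3 whole transcripts was 21 bases, against reads of 100 bases. A full-length read from one gene therefore carries at least one base that sets it apart from the transcripts of the other two, although how reads with several matches were counted is not given in the sources used here.

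Nuclear genes of these enzymes are known for promoters with sites of NRF1, a transcription factor of respiratory genes. The RefSeq promoter table (GRCm38.p6, the 250 bases before each start were searched, both strands) held 24 of the 28 members. The 10-base NRF1 consensus, one base of it free, stood before 6 of them (Atp5c1, Atp5g2, Atp5h, Atp5k, Sdha and Sdhd), against 3.74% of all 32851 promoters in the table. The ERR half-site AAGGTCA stood before Atp5g3 and Atp5l, against 4.08% of all promoters. The GC box GGGCGG stood before 11 members, against 32.7% of all promoters. A member was counted if any promoter listed under its symbol matched, whereas the percentages are over single promoters, so the measures are not quite alike. The stretches before Atp5k and Atp5h are printed because these were the members that passed the test, and the one before Atpif1, the inhibitor gene, because it had the largest difference of the nuclear ATP synthase genes examined. Capitals mark the NRF1 match and, in Atpif1 only, also the ERR half-site near the 5′ end; all 3 lie on the minus strand of GRCm38.p6, Atp5k at chr5:108434400-108434649, Atp5h at chr11:115419920-115420169 and Atpif1 at chr4:132535415-132535664.
Atp5k: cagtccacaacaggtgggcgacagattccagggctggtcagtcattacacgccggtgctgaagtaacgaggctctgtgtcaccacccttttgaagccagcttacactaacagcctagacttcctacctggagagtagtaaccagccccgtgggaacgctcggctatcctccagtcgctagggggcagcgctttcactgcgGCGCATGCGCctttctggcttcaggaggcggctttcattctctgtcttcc
Atp5h: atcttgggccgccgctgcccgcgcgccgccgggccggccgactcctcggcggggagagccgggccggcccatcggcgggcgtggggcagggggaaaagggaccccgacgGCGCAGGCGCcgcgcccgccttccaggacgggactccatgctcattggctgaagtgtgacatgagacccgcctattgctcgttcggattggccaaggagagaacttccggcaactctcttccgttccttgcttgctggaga
Atpif1: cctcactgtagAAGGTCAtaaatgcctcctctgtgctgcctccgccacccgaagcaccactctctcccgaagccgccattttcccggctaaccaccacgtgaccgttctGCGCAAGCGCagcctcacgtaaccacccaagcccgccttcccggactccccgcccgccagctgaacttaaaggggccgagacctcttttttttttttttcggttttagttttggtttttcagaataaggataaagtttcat
These matches describe letters in a window and say nothing of binding in these muscles.

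The libraries differed in makeup between the groups, and this touches every member. Over the 11611 genes tested, the median log2 fold change of LrpprcP27A minus LrpprcWT was -0.32 on the log2(TPM + 1) scale, and 88% of genes had a value below 0. The ribosomal RNA-like row Rn18s-rs5 took 8874 to 17614 TPM in LrpprcWT and 37023 to 44435 TPM in LrpprcP27A, and transcripts of the mitochondrial genome took 36.0 to 45.2% and 44.2 to 46.1% of all TPM. With median-of-ratios scaling, which sets the libraries to the same typical gene, the median of all genes moved to 0.04. Lrpprc itself, endogenous and plasmid reads together as far as they were counted, stood at 35.1, 37.0 and 75.2 TPM with LrpprcWT and at 26.9, 29.7 and 26.0 TPM with LrpprcP27A (limma, adjusted p = 0.065, and 0.00243 with the same-numbered libraries as pairs). The muscle genes Acta1, Ckm and 6 others of a fibre list summed to 122070 to 135230 TPM and 112230 to 127060 TPM, with 1 of the 8 called lower and 1 higher, so the labelled tissue was present in both groups. Summed markers of fibroblasts (4 of 4 called lower, 763 to 1240 TPM against 189 to 430 TPM), macrophages (4 of 4, 70.6 to 162 against 24.4 to 55.9 TPM) and oxidative or slow fibres (4 of 6, 345 to 502 against 121 to 231 TPM) were lower with LrpprcP27A. In the same limma fit 23.3% of all genes were called lower. Of the endothelial list 1 of 4 was called lower, of the Schwann cell list 1 of 4, of the satellite cell list 2 of 3 tested, and of the adipocyte list 0 of 2 tested. With same-numbered libraries as pairs, 4 of 4 endothelial, 6 of 6 slow fibre and 3 of 3 satellite cell markers were called lower, where 48.4% of all genes were. After median-of-ratios scaling the median log2 fold changes of the fibroblast, macrophage and slow fibre lists were -1.04, -0.90 and -0.99. Without pairs, 2 of 4, 1 of 4 and 2 of 6 of these markers were then called lower, where 5.81% of all genes were. The endothelial, satellite cell, Schwann cell and adipocyte medians were -0.14, -0.33, 0.04 and 0.36, with 0, 1, 0 and 0 markers called lower. The part of these cell types in the members' values was not tested.

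On deposited TPM the members' values were mostly lower with LrpprcP27A, with a median above that of all genes. The test was limma with a mean-variance trend and Benjamini-Hochberg adjustment over all genes. It called 2 members lower, Atp5k and Atp5h, and none higher, where it called 23.3% of all genes lower and 1.34% higher. An unadjusted p under 0.05 was found in 13 of the 27 members and in 5435 of the 11611 genes tested. With the same-numbered libraries of both groups as pairs, 10 members were called lower and none higher, against 48.4% and 2.69% of all genes. In that fit limma drew each variance toward a trend across genes, and the members' SE ran only from 0.117 (Sdhb) to 0.140 (Sdhaf3). The adjusted p-values given with pairs therefore reflect little of a gene's own spread of pair differences. The median log2 fold change of the 27 members was -0.24, 26 were below 0, and 20 of them lay above the median of all genes and 7 below it. In 19 members every LrpprcP27A library lay below every LrpprcWT library, which was so for 47.6% of all genes, and no member had the opposite order, which 3.51% of all genes had. With median-of-ratios scaling the members' median was 0.18, and 26 of 27 values were above 0 and 1 below, where 44.9% of all genes were below 0. After this scaling limma called no member in either direction, where it called 5.81% of all genes lower and 6.83% higher. An unadjusted p under 0.05 was then found in 6 of the 27 members and in 4010 of the 11611 genes. On that scale every LrpprcP27A library lay below every LrpprcWT library in 0 members and above in 10, against 16.4% and 23.2% of all genes. With pairs and that scaling together, 3 members were called higher, Atpaf1, Atpaf2 and Sdhaf1, and none lower, where 17.2% of all genes were called higher and 14.1% lower.

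**Figure D1:**
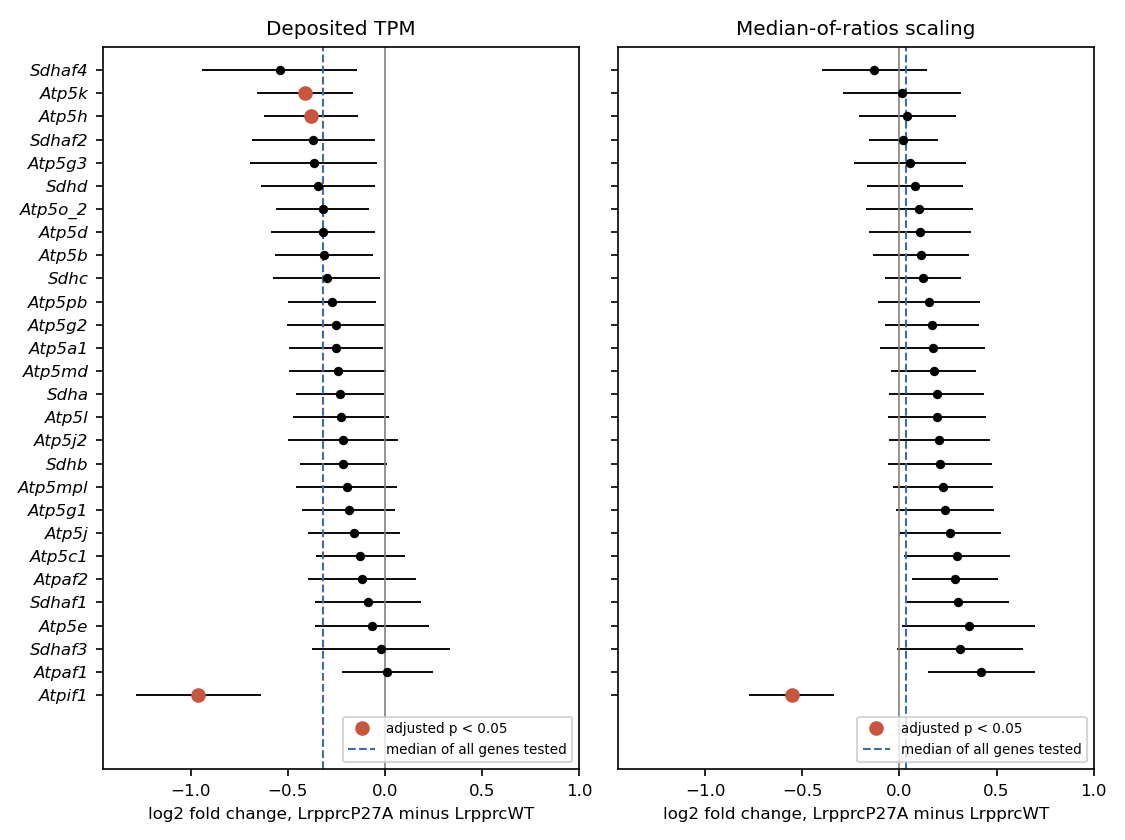
Log2 fold change (LrpprcP27A minus LrpprcWT) of the 27 members and of Atpif1, on the deposited TPM (left) and after median-of-ratios scaling (right). Points are limma estimates, bars 95% confidence intervals, red points passed an adjusted p of 0.05, and the dashed line is the median of all 11611 genes tested; the members lie around -0.24 on the left and around 0.18 on the right, and Atpif1 lies apart from them in both panels.

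The catalytic head genes were the most abundant members. Atp5a1, which encodes the alpha subunit, stood at 1599, 1444 and 1760 TPM in the LrpprcWT libraries and at 1392, 1356 and 1271 TPM in the LrpprcP27A libraries. The groups did not overlap, and the log2 fold change was -0.25 with an SE of 0.11 (adjusted p = 0.0956). Atp5b, which encodes the catalytic beta subunit, stood at 1574, 1318 and 1636 TPM against 1262, 1206 and 1163 TPM. Its groups did not overlap either, and its log2 fold change of -0.31 (SE 0.11, adjusted p = 0.0639) passed the test only with pairs (adjusted p = 0.0374). Atp5c1, the gene of the gamma subunit that forms the rotating central stalk, stood at 657, 622 and 725 TPM against 645, 612 and 578 TPM. These ranges overlapped, and the log2 fold change was -0.13 with a 95% interval from -0.36 to 0.10. The ratio of Atp5a1 to Atp5b was 1.06 ± 0.0415 with LrpprcWT and 1.11 ± 0.0162 with LrpprcP27A, and that of Atp5c1 to Atp5b was 0.444 ± 0.0274 and 0.505 ± 0.00755 (mean ± SD, n = 3 each).

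The other genes of the central stalk are Atp5d (delta) and Atp5e (epsilon). Atp5d was at 353 to 451 TPM with LrpprcWT and 294 to 338 TPM with LrpprcP27A, without overlap, and was called with pairs (adjusted p = 0.0412) but not without (adjusted p = 0.0719). Atp5e had the highest log2 fold change of the ATP synthase subunits, with 232, 247 and 316 TPM against 255, 260 and 238 TPM. Both LrpprcP27A replicates 1 and 2 lay above LrpprcWT replicates 1 and 2, and only LrpprcWT replicate 3 was higher than all the rest. The log2 fold change of Atp5e was -0.07 with a 95% interval from -0.36 to 0.23, and without LrpprcWT replicate 3 it was 0.07.

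The peripheral stalk, which keeps the head from turning with the rotor, is encoded by Atp5pb (subunit b), Atp5h (subunit d), Atp5j (F6) and Atp5o_2 (OSCP). Atp5h, on chromosome 11 and now named Atp5pd, stood at 423, 383 and 469 TPM with LrpprcWT and at 334, 332 and 309 TPM with LrpprcP27A. Every LrpprcP27A library was lower than the lowest LrpprcWT library. Atp5h fell by 0.38 on the log2 scale (SE 0.11, adjusted p = 0.0371; 0.0146 with pairs), and after median-of-ratios scaling the value was 0.04 with a 95% interval from -0.21 to 0.29. Atp5o_2 stood at 474 to 565 TPM against 384 to 428 TPM and had a log2 fold change of -0.32 (adjusted p = 0.0536, and 0.0341 with pairs). The annotation holds a pair of overlapping genes named Atp5po, so the division of reads between Atp5o_1 and Atp5o_2 is uncertain. Atp5pb was at 318 to 372 against 272 to 292 TPM and Atp5j at 204 to 243 against 187 to 201 TPM, both without overlap and neither called (adjusted p = 0.0704 and 0.237).

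The c ring drew most of its transcripts from one gene. Atp5g3 stood at 584, 489 and 712 TPM with LrpprcWT and at 477, 479 and 414 TPM with LrpprcP27A. Atp5g1 stood at 192, 180 and 214 TPM against 176, 176 and 161 TPM. Atp5g2 stood at 203, 181 and 228 TPM against 170, 177 and 163 TPM. In all 3 genes the highest LrpprcP27A library was below the lowest LrpprcWT library by a small margin. Atp5g3 was called only with pairs (log2 fold change -0.37, limma adjusted p = 0.0308 with pairs and 0.0820 without). Its pairs were uneven, with 489 against 479 TPM in replicate 2 and 712 against 414 TPM in replicate 3. As a share of the summed c subunit TPM, which does not depend on how the libraries are scaled, Atp5g3 made up 59.6% ± 2.10 with LrpprcWT and 57.2% ± 1.00 with LrpprcP27A (SD, n = 3). The share of Atp5g1 was 19.8% ± 1.32 and 21.5% ± 0.361, and that of Atp5g2 was 20.6% ± 0.781 and 21.4% ± 0.707. The ranges of all 3 shares overlapped, for Atp5g1 only through LrpprcWT replicate 2 and LrpprcP27A replicate 2 (exact permutation test, two-sided, p = 0.3 for Atp5g3, 0.2 for Atp5g1 and 0.5 for Atp5g2; 0.1 is the smallest p that 3 against 3 allows, so the test could not pass 0.05; adjusted over these 3 and the Atpif1 ratio described further on, p = 0.4, 0.4 and 0.5).

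The small membrane subunits join neighbouring enzymes into dimers along the cristae edges. Atp5k, which encodes subunit e and is now named Atp5me, lies on chromosome 5 at chr5:108581110-108582949 in GRCm39. It stood at 602, 612 and 721 TPM with LrpprcWT and at 517, 482 and 453 TPM with LrpprcP27A. The groups did not overlap, and LrpprcWT replicate 3 was the highest. Atp5k fell by 0.41 on the log2 scale (SE 0.11, adjusted p = 0.0332; 0.0105 with pairs), while after median-of-ratios scaling the value was 0.01 with a 95% interval from -0.29 to 0.32. Atp5l (subunit g) was at 106 to 129 against 94.5 to 105 TPM, Atp5j2 (subunit f) at 144 to 192 against 135 to 143 TPM, and Atp5md (DAPIT) at 99.5 to 123 against 91.3 to 95.2 TPM, each just without overlap. Atp5mpl (the 6.8 kDa proteolipid) was at 171 to 217 against 161 to 175 TPM, and its groups overlapped. Their log2 fold changes ran from -0.24 for Atp5md to -0.20 for Atp5mpl, and none was called.

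The assembly factors of the head had overlapping values in both groups. Atpaf1, the chaperone of the beta subunit, stood at 29.8, 28.6 and 29.6 TPM with LrpprcWT and at 28.6, 31.1 and 29.2 TPM with LrpprcP27A. It was the member with the highest log2 fold change, 0.01, with a 95% interval from -0.22 to 0.25. Atpaf2, the chaperone of the alpha subunit, stood at 22.2, 19.5 and 24.4 TPM against 20.3, 21.0 and 19.2 TPM, with a log2 fold change of -0.12 (95% interval from -0.40 to 0.16). With median-of-ratios scaling both log2 fold changes were above that of the typical gene, 0.42 for Atpaf1 and 0.29 for Atpaf2 (adjusted p = 0.0561 and 0.0823; 0.0113 and 0.0348 with pairs).

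**Figure D2:**
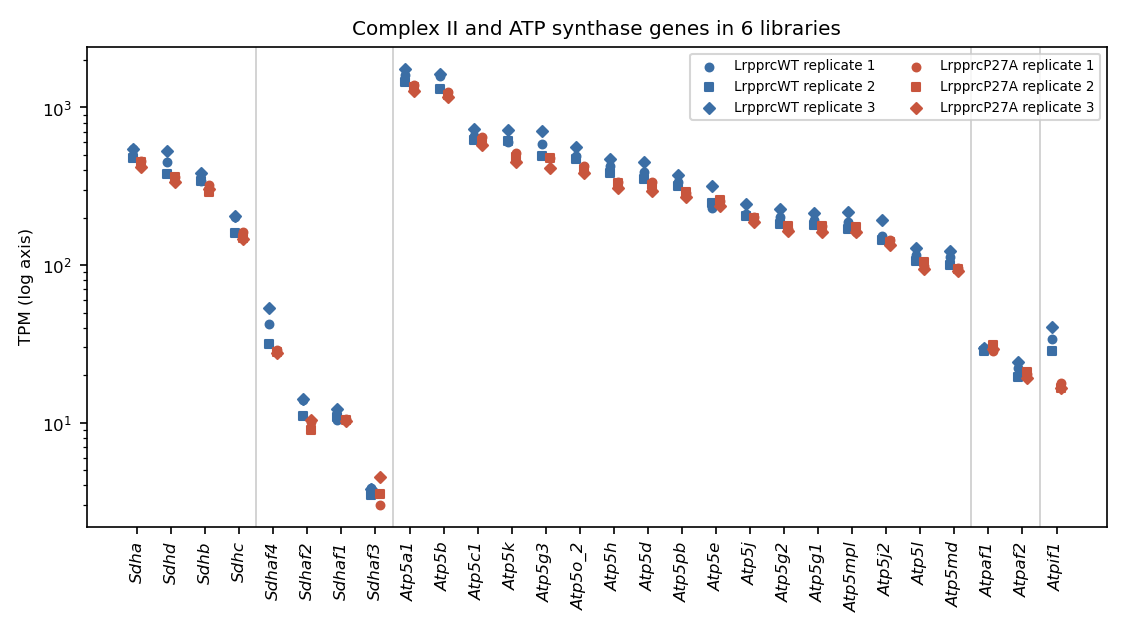
TPM of each tested member and of Atpif1 in the 6 libraries, on a log axis; blue marks LrpprcWT, red LrpprcP27A, and circles, squares and diamonds replicates 1, 2 and 3. From left to right the blocks are complex II subunits, complex II assembly factors, ATP synthase subunits, ATP synthase assembly factors and Atpif1; levels run from 1760 TPM in the highest library of Atp5a1 down to 3.00 TPM in the lowest library of Sdhaf3.

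None of the 4 complex II subunit genes was called without pairs. Sdha encodes the flavoprotein that binds succinate, and it stood at 548, 476 and 546 TPM with LrpprcWT and at 460, 453 and 422 TPM with LrpprcP27A. Sdhb, the gene of the iron-sulfur subunit that relays the electrons, stood at 343, 341 and 384 TPM against 323, 292 and 305 TPM. The groups did not overlap in either gene, and neither was called (log2 fold change -0.23 and -0.21, adjusted p = 0.104 and 0.119). The membrane anchors that bind ubiquinone and heme are encoded by Sdhc, at 203, 160 and 205 TPM against 163, 149 and 147 TPM, and by Sdhd, at 452, 379 and 527 TPM against 363, 364 and 335 TPM. LrpprcWT replicate 2 lay within reach of the LrpprcP27A libraries for both anchors, and for Sdhc it was below LrpprcP27A replicate 1. Both anchors were called with pairs only (Sdhc, log2 fold change -0.30, adjusted p = 0.0453; Sdhd, -0.34, adjusted p = 0.0327).

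The assembly factors of complex II included the least abundant members, and their log2 fold changes spread more widely than those of the subunits. Sdhaf4, which binds the flavinated Sdha protein before it joins Sdhb, stood at 42.5, 31.5 and 53.5 TPM with LrpprcWT and at 28.8, 28.2 and 27.6 TPM with LrpprcP27A. The LrpprcP27A libraries lay close together and below all LrpprcWT libraries, which ranged widely. Its log2 fold change of -0.54 (SE 0.18) was the lowest of the members, with an adjusted p of 0.0521, and 0.00408 with pairs. The SE with pairs was 0.14, set mostly by the trend across genes. The pairs themselves were uneven, with 31.5 against 28.2 TPM in replicate 2 and 53.5 against 27.6 TPM in replicate 3. Sdhaf4 was also the only member with a value below 0 after median-of-ratios scaling (-0.13, 95% interval from -0.40 to 0.14). Sdhaf2, needed to attach FAD to the Sdha protein, stood at 13.9, 11.0 and 14.1 TPM against 10.1, 8.99 and 10.4 TPM. Its groups did not overlap, and it was called with pairs only (log2 fold change -0.37, adjusted p = 0.0216 with pairs and 0.0746 without). Sdhaf1, which helps insert the iron-sulfur clusters of the Sdhb protein, stood at 10.4, 10.9 and 12.2 TPM against 10.5, 10.4 and 10.3 TPM. Sdhaf3, which acts in the same step, stood at 3.83, 3.49 and 3.81 TPM against 3.00, 3.53 and 4.52 TPM. In these 2 genes the groups overlapped, with log2 fold changes of -0.09 (95% interval from -0.36 to 0.18) and -0.02 (from -0.37 to 0.33).

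Summed over subunits, the transcripts of both enzymes were lower with LrpprcP27A on deposited TPM and higher after median-of-ratios scaling. Protein was not measured in these libraries. The 17 tested ATP synthase subunit genes summed to 8060, 7345 and 9074 TPM with LrpprcWT and to 6982, 6816 and 6369 TPM with LrpprcP27A. The 4 complex II subunit genes summed to 1546, 1357 and 1662 TPM against 1309, 1258 and 1209 TPM. The LrpprcP27A mean was 0.824 times the LrpprcWT mean for ATP synthase and 0.827 times for complex II, log2 ratios of -0.28 and -0.27 that became 0.15 and 0.15 after median-of-ratios scaling. The ratio of the sums within a library was 5.36 ± 0.130 with LrpprcWT and 5.34 ± 0.0749 with LrpprcP27A (mean ± SD, n = 3 each), and the ranges overlapped. In 24 of the 27 members LrpprcWT replicate 2 was the lowest of its group and in 24 LrpprcWT replicate 3 was the highest. LrpprcWT replicate 2 thus lay nearest the LrpprcP27A libraries. This order was not counted over all genes. The median-of-ratios factors, which follow the typical gene, were 1.27, 0.981 and 1.28 in LrpprcWT replicates 1, 2 and 3, and 0.831 to 0.896 with LrpprcP27A. Without LrpprcWT replicate 2, 17 of 27 members were called lower, where 59.5% of all genes were. Without any one of the other libraries no member was, where the share of all genes called lower was 2.51% without LrpprcWT replicate 1, 0.129% without LrpprcWT replicate 3, and 14.5%, 4.34% and 3.79% without LrpprcP27A replicates 1, 2 and 3.

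Atpif1 (now Atp5if1), the gene of the inhibitor protein that binds the catalytic head when the membrane potential collapses, carries its older symbol in the table and so was not taken by the rule. It stood at 33.7, 28.6 and 40.5 TPM with LrpprcWT and at 17.7, 16.6 and 16.5 TPM with LrpprcP27A. All LrpprcP27A libraries were far below the lowest LrpprcWT library, and the LrpprcP27A mean was 0.495 times the LrpprcWT mean. It fell by 0.96 on the log2 scale (SE 0.14, 95% interval from -1.28 to -0.64, limma adjusted p = 0.0116), and by 0.55 after median-of-ratios scaling (limma adjusted p = 0.0259). Without LrpprcWT replicate 3 the log2 fold change was -0.84 and the adjusted p 0.0678. Per 100 TPM of Atp5b, Atpif1 stood at 2.14, 2.17 and 2.48 TPM with LrpprcWT and at 1.40, 1.38 and 1.42 TPM with LrpprcP27A. These ratios do not depend on the scaling of the libraries, they did not overlap, and the exact permutation test gave p = 0.1 (two-sided; 0.4 adjusted over this and the 3 c subunit shares), the smallest it can give with 3 against 3.

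**Figure D3:**
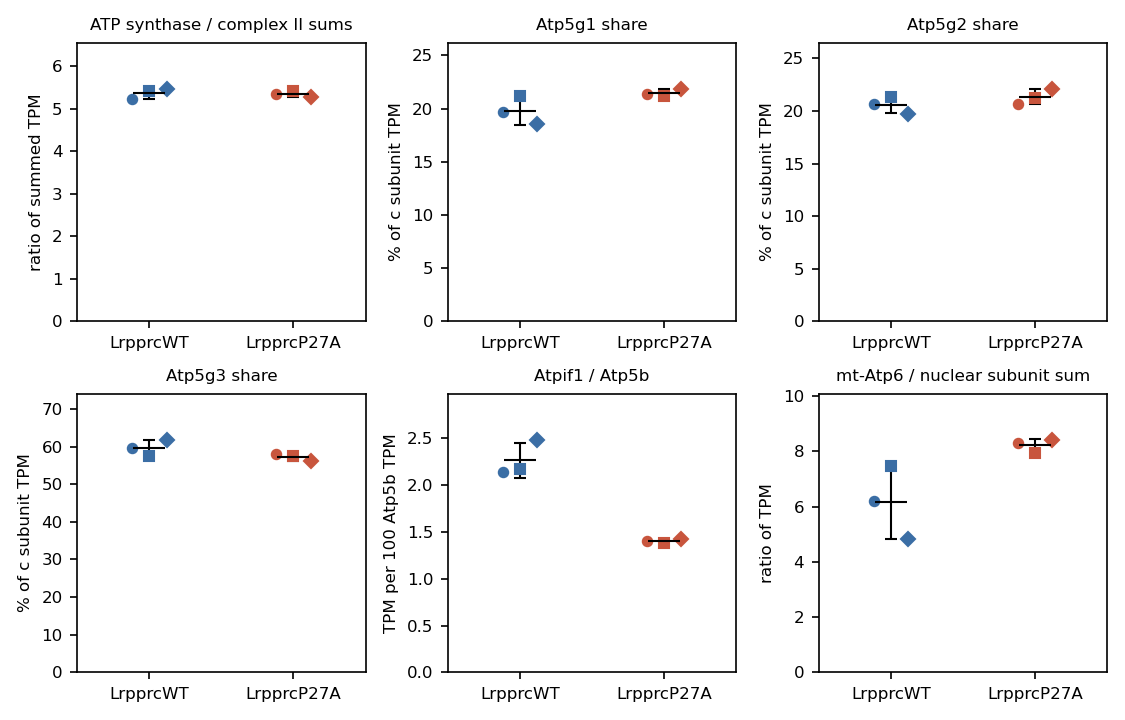
Ratios taken within each library, each axis starting at 0: summed ATP synthase over summed complex II subunit TPM, the share of each c subunit gene in % of their summed TPM, Atpif1 per 100 TPM of Atp5b, and mt-Atp6 over the summed nuclear ATP synthase subunits. Points are libraries (circle, square and diamond for replicates 1, 2 and 3), with the mean and SD (n = 3); the groups separate in the Atpif1 ratio (2.14 to 2.48 against 1.38 to 1.42) and in the mt-Atp6 ratio (4.81 to 7.48 against 7.95 to 8.41) and overlap in the other panels.

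The mitochondrially encoded subunit genes were far more abundant than the nuclear ones, and their groups overlapped. mt-Atp6, which encodes subunit a, the proton path beside the c ring, stood at 50030, 54962 and 43649 TPM with LrpprcWT and at 57963, 54157 and 53543 TPM with LrpprcP27A. mt-Atp8, whose product A6L sits beside it and whose reading frame overlaps that of mt-Atp6, stood at 37224, 34820 and 22997 TPM against 30384, 25205 and 32401 TPM. The log2 fold changes were 0.16 (95% interval from -0.11 to 0.44) and -0.09 (from -0.52 to 0.34), with adjusted p of 0.295 and 0.714, and reads in the overlap cannot be assigned to one of them. After median-of-ratios scaling the value of mt-Atp6 was 0.59 (95% interval from 0.05 to 1.12, adjusted p = 0.120) and that of mt-Atp8 turned to 0.34 (from -0.30 to 0.97, adjusted p = 0.406). The ratio of mt-Atp6 to the summed nuclear ATP synthase subunits was 6.21, 7.48 and 4.81 with LrpprcWT and 8.30, 7.95 and 8.41 with LrpprcP27A, so that every LrpprcP27A library was above every LrpprcWT library. The same ratio for mt-Atp8 was 4.62, 4.74 and 2.53 against 4.35, 3.70 and 5.09, and its groups overlapped. These ratios were described and not tested.

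Other genes that work with these enzymes were taken as a list of 30, of which 29 were tested. Of these, 5 (17.2%) were called lower and none higher, where 23.3% of all genes were called lower, and the median log2 fold change was -0.18 beside -0.32 for all genes. The called genes were Slc25a5, Micos13, Oxa1l, Apool and Tmem70. Slc25a5, an ADP/ATP carrier, stood at 77.9, 44.8 and 103 TPM with LrpprcWT and at 38.9, 27.2 and 37.9 TPM with LrpprcP27A, and fell by 1.03 on the log2 scale (adjusted p = 0.0333). Slc25a4, the carrier that dominates in muscle, stood at 2723 to 3339 TPM against 2722 to 2931 TPM, and its groups overlapped. Slc25a5 therefore made up 1.55 to 3.09% of the level of Slc25a4 with LrpprcWT and 0.929 to 1.43% with LrpprcP27A. Tmem70, which promotes assembly of the c ring, stood at 77.8, 68.7 and 88.1 TPM against 56.9, 60.8 and 61.1 TPM and fell by 0.38 (adjusted p = 0.0476). Oxa1l, the insertase of the inner membrane, stood at 32.5, 23.5 and 32.4 TPM against 21.5, 20.8 and 19.6 TPM and fell by 0.48 (adjusted p = 0.0448). The cristae genes Micos13 (60.7, 54.7 and 75.0 TPM against 42.1, 46.1 and 43.1 TPM) and Apool (24.0, 18.3 and 23.7 TPM against 16.0, 15.4 and 15.3 TPM) fell by 0.52 and 0.46 (adjusted p = 0.0305 and 0.0400). The groups of libraries did not overlap in any of these 5 genes, which were picked because they were called. Over the 29 genes, every LrpprcP27A library lay below every LrpprcWT library in 10 (34.5%), where this was so for 47.6% of all genes. After median-of-ratios scaling none of the 5 was called without pairs, and Vdac3 and Opa1 were called higher (log2 fold change 0.49 and 0.33, adjusted p = 0.0497 and 0.0486). These were 2 of the 29 genes, where 6.83% of all genes were called higher and 5.81% lower. On that scale Slc25a5 kept a log2 fold change of -0.62 (95% interval from -1.11 to -0.13, adjusted p = 0.0864) and was called lower with pairs (adjusted p = 0.0122). With pairs and that scaling, 8 of the 29 genes were called higher and 1 lower, where 17.2% and 14.1% of all genes were. None of the 5 citric acid cycle genes next to complex II (Suclg1, Sucla2, Suclg2, Fh1 and Mdh2) was called, with log2 fold changes between -0.28 and -0.04.

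The members' median lay between those of the other respiratory complexes. Of 38 complex I subunit genes 4 (10.5%) were called lower and none higher, with a median log2 fold change of -0.19 and a range from -0.64 to 0.09. Of 24 nuclear subunit genes of complexes III and IV, 8 (33.3%) were called lower and none higher, with a median of -0.29 and a range from -0.83 to -0.02. Of the members 7.41% were called lower, and of all genes 23.3%. The 4 complex II subunits ranged from -0.34 to -0.21 and the 17 ATP synthase subunits from -0.41 to -0.07. After median-of-ratios scaling the medians of complex I and of complexes III and IV were 0.23 and 0.13. On that scale none of their genes was called lower, and 1 complex I gene was called higher, where 6.83% of all genes were. These groups share the same 6 libraries, and the differences between them were not tested.

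**Figure D4:**
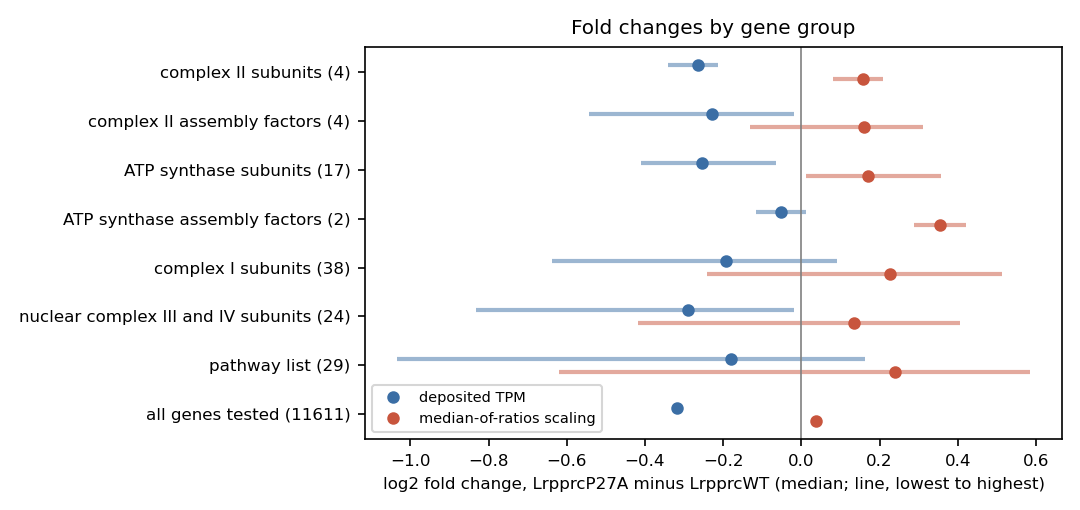
Log2 fold change (LrpprcP27A minus LrpprcWT) by gene group, with the number of genes tested in brackets; points are medians and lines run from the lowest to the highest gene, blue on deposited TPM and red after median-of-ratios scaling, with no line for all genes. Medians of the member groups run from -0.27 to -0.05 in blue and from 0.16 to 0.35 in red, beside -0.32 and 0.04 for all genes.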

How the data were processed

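RNA was extracted with Trizol from 3 LrpprcWT and 3 LrpprcP27A muscles and sequenced as TruSeq libraries on an Illumina NovaSeq with paired 100-bp reads. The authors trimmed reads at Q20 and 50 bp, mapped them to GRCm39 in CLC Genomics Workbench 20.0.4, and deposited one table of TPM; each of its columns sums to 1000000. Reads per gene were not used here, so depth is unknown and no counting intervals are given. The annotation release is not given in the sources used here.

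Values were taken as log2(TPM + 1), genes with a mean of at least 1 TPM were kept, and groups were compared with limma 3.58.1 (R 4.3.3), with a trend and Benjamini-Hochberg adjustment over 11611 genes; a fold change on this scale understates that of low genes. The unpaired fit was run on simulated data that held no pairs and no difference in library makeup. That run therefore says nothing of the paired fit or of the scaling. Titles give the libraries of both groups the same numbers and the plasmids went into contralateral muscles; deviations of same-numbered libraries from their group means correlated at 0.36, 0.53 and 0.36, so the numbers were taken as pairs and a fit with the pair as a replicate block was run beside the unpaired one. Per the study's methods, the 3 libraries of a group are biological replicates from different mice. The members, the lists and the alternatives were chosen with earlier results of these data known. Every tested member is named, with values per library for the catalytic head, the c subunits, complex II, the assembly factors and the 3 lowest and 3 highest log2 fold changes, and, of the pathway list, for the mitochondrial genes and those called; the promoter motifs were chosen after values were seen. Current names and coordinates come from GENCODE M39 (GRCm39) and RefSeq. Alternatives were another pseudocount, other filters, limma without the trend, a Kruskal-Wallis test, the block, 3 other scalings, and leaving out each library.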

Additional observations from a re-analysis of the deposited data

How the results depend on the processing

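TPM values hold no depth, so low members such as Sdhaf3 are the least certain, and the scaling of the libraries decides the direction for most members; the cause was not tested. Members called lower numbered 2; there were 10 with the replicate block, 17 without LrpprcWT replicate 2 and 0 without any one other library, and 0 with no filter, without the trend, with the Kruskal-Wallis test (whose smallest p cannot pass after adjustment), with median-of-ratios scaling with or without the block, with rescaling that leaves out mt- and ribosomal RNA genes, and with quantile normalization. The share of all genes called was not counted for the fits with no filter, without the trend, with the rescaling or with quantile normalization. Counts under those settings, here and for the other gene lists below, cannot be read as particular to these genes. Members called higher numbered 0, and 3 with the block and median-of-ratios scaling, and no library left out gave any. The members' median was 0.18 with median-of-ratios scaling with or without the block, -0.058 with the rescaling and -0.0063 with quantile normalization, and -0.32 to -0.17 with a library left out. The log2 ratio of summed TPM was 0.15 after median-of-ratios scaling for ATP synthase and 0.15 for complex II, and ran from -0.35 to -0.20 and from -0.35 to -0.21 with a library left out.

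With median-of-ratios scaling, with or without the block, values turned positive for Atp5a1 (0.17), Atp5b (0.11), Atp5c1 (0.30), Atp5d (0.10), Atp5e (0.36), Atp5g1 (0.23), Atp5g2 (0.17), Atp5g3 (0.055), Atp5h (0.041), Atp5j (0.26), Atp5j2 (0.21), Atp5k (0.012), Atp5l (0.19), Atp5md (0.18), Atp5mpl (0.22), Atp5o_2 (0.10), Atp5pb (0.15), Atpaf2 (0.29), Sdha (0.19), Sdhaf1 (0.30), Sdhaf2 (0.021), Sdhaf3 (0.31), Sdhb (0.21), Sdhc (0.12) and Sdhd (0.080). With quantile normalization they did so for Atp5c1 (0.028), Atp5e (0.15), Atp5g1 (0.054), Atp5j (0.087), Atp5j2 (0.028), Atp5l (0.030), Atp5md (0.029), Atp5mpl (0.032), Atpaf2 (0.20), Sdhaf1 (0.27), Sdhaf3 (0.38) and Sdhb (0.046), and with the rescaling for Atp5c1 (0.062), Atp5e (0.12), Atp5g1 (3.1e-05), Atp5j (0.027), Atpaf2 (0.064), Sdhaf1 (0.089) and Sdhaf3 (0.14). With a library left out the sign changed for Atp5e (from -0.16 to 0.067, positive without LrpprcWT replicate 3), Atpaf1 (from -0.023 to 0.037, negative without replicate 2 of either group) and Sdhaf3 (from -0.14 to 0.087, positive without LrpprcP27A replicate 1).

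Of the pathway list, 5 genes were called lower; there were 0 with no filter, 3 without the trend, 0 with the Kruskal-Wallis test, median-of-ratios scaling, the rescaling or quantile normalization, 1 with the block and median-of-ratios scaling, and 0 to 15 with a library left out; 2 were called higher with median-of-ratios scaling and 8 with the block added. Complex I subunits called lower numbered 4; there were 2 without the trend, 0 to 12 with a library left out, and 0 with no filter, the Kruskal-Wallis test, the rescaling, quantile normalization or median-of-ratios scaling with or without the block. Complex III and IV subunits called lower numbered 8; there were 4 without the trend, 1 with the block and median-of-ratios scaling, 0 to 15 with a library left out, and 0 in the rest of those settings. The c subunit shares and the ratio of Atpif1 to Atp5b kept their direction with each library left out and as pairs, where the differences are the same and the smallest exact p is 0.25. Atpif1 was called in every fit run except those with no filter, with the Kruskal-Wallis test and without LrpprcWT replicate 3, with log2 fold changes from -1.08 to -0.55.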
